A study of Mus musculus with 6 samples.

Results

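Untreated Lpin2 KO cells were compared with untreated WT cells in RAW-D, a subline of the mouse macrophage line RAW264.7 that readily forms osteoclasts. The comparison takes 3 of the 6 arrays of the series, namely KO clone #1, KO clone #2 and WT cells, chosen by genotype and the absence of LPS in their labels, and covers all 19505 named genes. The other 3 arrays hold the same cells after LPS at 200 ng/mL for 4 h and are used here only where stated. The KO clones were made with a CRISPR/Cas9 knockout plasmid and a repair plasmid, then selected with puromycin and isolated as single clones. No such step is described for the WT cells, so the edit, the selection and the cloning cannot be told apart in these data. All cells grew in the same serum-containing medium.

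Lipins are phosphatases that turn phosphatidate into diacylglycerol, a step on the way to triglycerides and phospholipids. Macrophages express mainly lipin1 and lipin2, and loss of lipin2 in humans causes Majeed syndrome, an inflammatory disease of bone. Toll-like receptors (TLRs) on macrophages sense microbial products and, through NF-κB and AP-1 factors, switch on cytokines, chemokines and the feedback inhibitors that later stop the response.

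Values are log2 signals, which ran from 2.72 to 18.12 over genes on the untreated arrays, and a difference of 1 is a 2-fold change. Each array carries negative control probes, and a signal was called dim where it did not exceed their 95th percentile, which was 9.34 for clone #1, 9.45 for clone #2 and 9.21 for WT. On these arrays 29.0% to 31.0% of genes were above it. Where 1 genotype was dim, a fold is given as "at least", with that percentile in place of the dim signal, and for genes higher in KO it holds for the mean of the clones. These bounds depend on the percentile. At the 99th they shrink to 2.99-fold for Igf1, 2.38-fold for Slc7a8 and 2.16-fold lower for Cd80. For others, such as Hpgds and Flt1, no bound remains there. Differences are KO minus WT, tested with limma, and adjusted p is the Benjamini-Hochberg value over all genes with 0.05 as the threshold. WT had 1 array, so its own spread was not measured and was taken to be that between the clones. Leaving out a clone, or "without clone #1", means a fit without that clone's untreated array, while its LPS array stayed in. Such a fit sets 1 KO array against 1 WT array, and its spread is only that between the LPS-treated clones. Its p-values therefore do not hold the spread between the untreated clones. With 2 KO arrays and 1 WT array, the smallest p of an exact permutation test is 0.333.

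Markers fitted the labelled cell type. All 8 measured defining macrophage markers were above the limit in both clones and 7 in WT, where Fcgr1, an IgG receptor, was dim at 9.02, with a mean log2 signal of 15.47 and 15.16 in clones #1 and #2 and 14.13 in WT. None of the defining markers of dendritic cells (4 measured), neutrophils and mast cells (6), lymphocytes (6) or fibroblasts and epithelium (5) was above them. Lpin2, the targeted gene, had 7.97 and 8.42 in clones #1 and #2 and 7.21 in WT, dim on all arrays, so it cannot check the genotypes (difference 0.99, standard error 0.30, adjusted p = 0.144 by limma, or 0.0435 with the clone as a block). The WT arrays were close to each other: 144 genes differed over 2-fold between WT with LPS and untreated WT, against 2671 between the arrays of clone #1 and 2281 between those of clone #2. The label of the untreated WT array also states that its values are gene-level, whereas the remaining 5 labels state exon-level, and its part in the results was not tested.

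Without any stimulus, 422 genes (2.16% of those tested) were higher and 418 (2.14%) lower in KO cells. Among the higher genes were the growth factor Igf1, the amino acid transporter Slc7a8 and many macrophage surface receptors, and among the lower ones the co-stimulatory ligand Cd80 and the inflammatory genes Tnf, Il1b, Cxcl2 and Ptgs2. Both groups of genes were dim in part: 109 of the higher and 152 of the lower genes were dim in both genotypes. Among the 6388 genes that were not dim on all 3 arrays, 313 (4.9%) were higher and 266 (4.16%) lower. Counts of list members given below stand beside these shares and those over all genes. The total of 840 (4.31%) was 1339 with the clone as a block, which takes the difference between clones out of the error. It was 214 without clone #1 and 222 without clone #2, and 182 genes passed both times. By size alone, 585 genes (3.0%) were over 2-fold higher and 555 (2.85%) over 2-fold lower in both clones. Over all genes the median difference was 0.03. The median absolute difference was 0.27 for clone #1 against WT, 0.30 for clone #2 against WT and 0.18 between the clones.

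**Figure D1:**
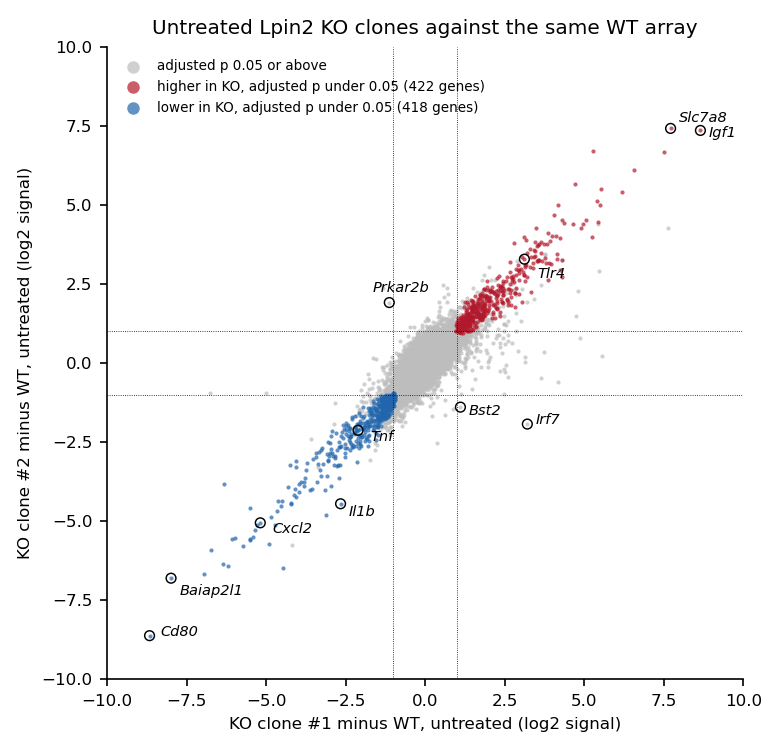
Each point is 1 of 19505 genes, with its log2 difference from the untreated WT array in KO clone #1 (x axis) and KO clone #2 (y axis); dotted lines mark 2-fold, and circles mark genes named in the text. Both axes share the WT array, which by itself draws points to the diagonal. In red are the 422 genes that passed as higher and in blue the 418 that passed as lower. Irf7, Bst2 and Prkar2b lie over 2-fold on opposite sides, with the lower clone dim in each.

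The 15 genes with the largest differences up were chosen among those above the 95th percentile of the negative controls in both clones. All were dim in WT, and 7 of them would count as dim in both genotypes at the 99th percentile. Igf1, insulin-like growth factor 1, had 15.38 and 14.08 in clones #1 and #2 and 6.72 in WT, a difference of 8.01 (standard error 0.74, adjusted p = 0.00597) or at least 45.9-fold. Slc7a8, a transporter of neutral amino acids, had 14.55 and 14.26 in the clones and 6.84 in WT, at least 36.6-fold (adjusted p = 0.000698). In both genes the clones lay far above WT and close to each other relative to that gap, which the choice of genes favors. Hpgds, which makes prostaglandin D2, had 12.90 and 12.45 in the clones and 6.33 in WT, at least 11.1-fold (adjusted p = 0.000909). Alox5, the 5-lipoxygenase that starts leukotriene synthesis, had 10.99 and 10.22 in the clones and 4.81 in WT, at least 2.63-fold (adjusted p = 0.00196). These are separate branches of arachidonate metabolism, and the inducible cyclooxygenase Ptgs2 went the other way, as given below. Cd276, an immune checkpoint ligand also called B7-H3, had 14.16 and 13.61 in the clones and 9.21 in WT, at least 25.6-fold (adjusted p = 0.00196). The lipid-binding protein gene Fabp7 had 12.97 and 14.40 in the clones and 7.70 in WT, at least 22.2-fold (adjusted p = 0.0163). The iron exporter ferroportin, Slc40a1, had 10.77 and 11.57 in the clones and 6.58 in WT, at least 3.9-fold (adjusted p = 0.00408).

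The remaining 8 of these genes were the C-type lectin Clec4n (dectin-2, at least 16.7-fold), the fractalkine receptor Cx3cr1 (at least 16.4-fold), the UDP receptor P2ry6 (at least 14.8-fold), the pore-forming protein Mpeg1 (at least 11.5-fold), Frmd4b (at least 8.77-fold), the tight junction protein Cldn11 (at least 5.16-fold), Olfml3 (at least 3.15-fold) and the proton-sensing receptor Gpr65 (at least 2.3-fold). Their adjusted p ran from 0.00125 for Cldn11 and Cx3cr1 to 0.0272 for Gpr65. In every one both clones were above WT, which the choice of genes over 2-fold in both clones required. Fabp7 lost its call without clone #2 (adjusted p = 0.0594), as did Olfml3 (0.0570), and Mpeg1 and Gpr65 lost theirs without either clone (0.0970 and 0.0885 without clone #1, 0.0691 and 0.0532 without clone #2).

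Of the 15 genes with the largest differences down, all were dim in both clones. At the 99th percentile WT stayed above the limit for Cd80, Scin, Prxl2a and Lta only, and the others would count as dim in both genotypes. Cd80, the ligand that co-stimulates T cells through CD28, had 5.48 and 5.52 in clones #1 and #2 and 14.15 in WT, a difference of -8.65 (standard error 0.45, adjusted p = 0.00125) or at least 27.0-fold lower. Lta, which encodes the cytokine lymphotoxin-α, had 7.56 and 8.36 in the clones and 14.28 in WT, at least 29.6-fold lower (adjusted p = 0.0104). Scin, the actin-severing protein adseverin, had 6.46 and 6.73 in the clones and 13.41 in WT, at least 16.1-fold lower (adjusted p = 0.000698). For these 3 genes the clones gave no signal above the negative controls where WT was bright. Phgdh, the first enzyme of serine synthesis, had 8.43 and 6.41 in the clones and 12.90 in WT, at least 11.3-fold lower (adjusted p = 0.0223). Flt1, a receptor of VEGF, had 6.45 and 6.90 in the clones and 12.42 in WT, at least 8.16-fold lower (adjusted p = 0.00125).

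The other 10 were Prxl2a (at least 14.8-fold lower), the membrane-bending adaptor Baiap2l1 (at least 11.1-fold), Dmwd (at least 6.51-fold), the collagen hydroxylase P3h2 (at least 5.15-fold), the carbonic anhydrase Car12 (at least 5.13-fold), the serine protease Klk8 (at least 2.36-fold), the neuronal filament protein Ina (at least 2.05-fold), the serotonin transporter Slc6a4 (at least 1.97-fold), the calcium channel subunit Cacnb2 (at least 1.95-fold) and the ubiquitin ligase Nedd4, for which no fold can be given because WT itself, at 9.29, lay just above its limit and below those of the clones. Their adjusted p ran from 0.000698 for Klk8 and Nedd4 to 0.0112 for P3h2. WT was above both clones in all of them, which the choice of genes over 2-fold in both clones required. P3h2 lost its call without either clone (adjusted p = 0.0683 without clone #1 and 0.0734 without clone #2) and Lta without clone #1 (0.0626).

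**Figure D2:**
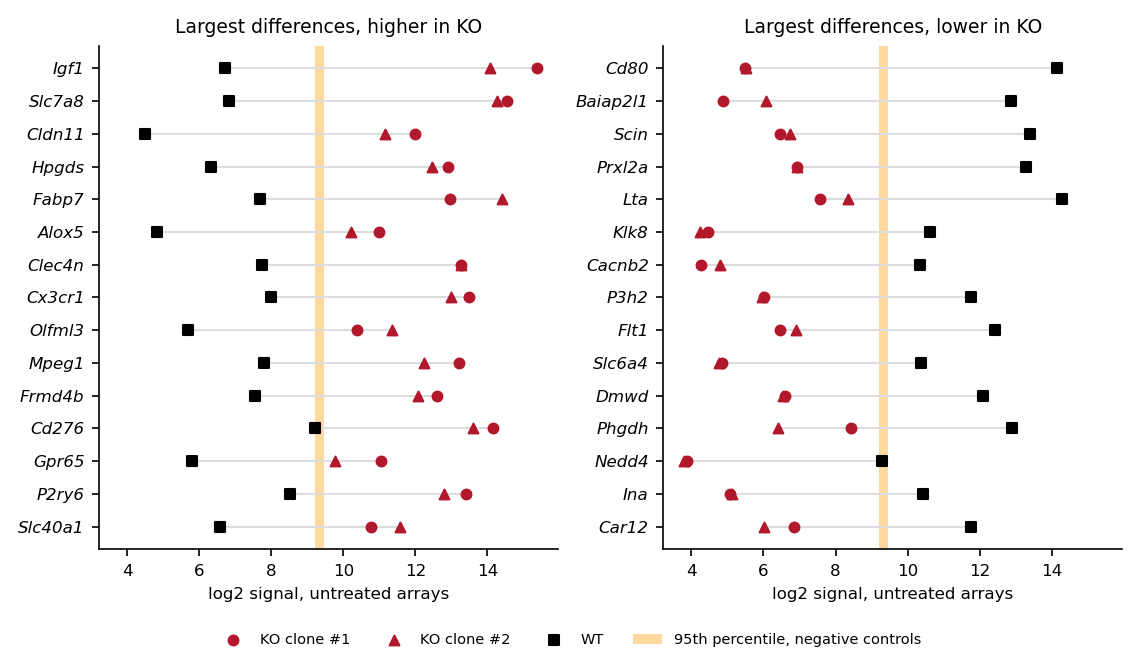
Log2 signals (x axis) of the 15 genes with the largest differences up (left) and down (right) on the 3 untreated arrays, with KO clones in red and WT as black squares; the shaded band spans the limits for dim signals, 9.21 to 9.45. In the left panel genes were chosen with the clones right of the band, and WT lies on or left of it. In the right panel the clones lie left of the band.

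A set of genes that LPS normally switches on was lower in untreated KO cells. Over 7 lists of cytokines, CC and CXC chemokines, NF-κB factors and inhibitors, feedback inhibitors, prostaglandin and leukotriene enzymes, and nitric oxide, arginine and itaconate enzymes, which were joined after their values were seen, 26 of 139 measured genes were lower and 7 higher. That is 18.7% lower, beside 2.14% of all genes. The median of the 139 genes was 0.05, beside 0.03 over all genes. It includes members dim in both genotypes, from 5 of 18 NF-κB factors and inhibitors to 14 of 18 CC chemokines. Of the 26, 7 were dim in both genotypes, namely Il1a, Csf3, Ltb, Ccl5, Ccl22, Socs3 and Nfkbiz. Without clone #1, 16 of the 26 passed the test, and without clone #2, 15 did, with 13 in both.

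Among cytokines, 7 of 30 were lower and none higher (0 by limma, 4 at an unadjusted p under 0.05, 2 with the clone as a block). The lower members made 23.3% of the list, beside 2.14% of all genes. Tnf had 14.07 and 14.05 in clones #1 and #2 and 16.18 in WT, a difference of -2.12 (standard error 0.19, adjusted p = 0.00544). Il1b, which encodes IL-1β, had 7.0 and 5.21 in the clones and 9.66 in WT, a difference of -3.56 (standard error 0.67, adjusted p = 0.0481) or at least 1.2-fold lower, and its adjusted p was 0.0727 with robust moderation. Tnf was bright on all 3 arrays, whereas Il1b was dim in both clones and barely above the limit in WT. Ebi3, a subunit of IL-27 and IL-35, had 11.51 and 11.09 in the clones and 13.63 in WT (difference -2.33, adjusted p = 0.0146). The others lower were Lta, given above, and Il1a, Csf3 and Ltb. Ebi3 lost its call without either clone (adjusted p = 0.0507 without clone #1 and 0.0760 without clone #2) and Lta without clone #1 (0.0626). Il6 was dim on all 3 arrays, with 4.04 and 4.30 in the clones and 5.89 in WT (adjusted p = 0.390).

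Among chemokines, 4 of 18 CC members were lower and none higher (3 at an unadjusted p under 0.05, 1 with the clone as a block), and 1 of 15 CXC members was lower and 1 higher. The shares lower were 22.2% for CC and 6.67% for CXC chemokines, beside 2.14% of all genes. The higher CXC member made 6.67%, beside 2.16%. The list medians were 0.24 for CC and 0.34 for CXC chemokines. Most members were dim in both genotypes, 14 of 18 and 11 of 15, and the medians of the others were -1.13 and 0.75. Cxcl2, which attracts neutrophils, had 5.87 and 6.0 in clones #1 and #2 and 11.05 in WT, a difference of -5.12 (standard error 0.19, adjusted p = 0.00076) or at least 3.15-fold lower. Ccl4, or MIP-1β, had 6.89 and 6.69 in the clones and 10.94 in WT, at least 2.92-fold lower (adjusted p = 0.00196). Ccl3, or MIP-1α, had 14.78 and 14.81 in the clones and 17.10 in WT (difference -2.31, adjusted p = 0.00403). In all 3 the clones differed from each other by far less than from WT. The error of the test is the spread between the clones, so genes that pass tend to show this. The higher CXC member was Cxcl16, a membrane-bound chemokine that also binds oxidized lipoproteins, with 15.64 and 15.66 in the clones and 11.90 in WT (difference 3.75, standard error 0.18, adjusted p = 0.00125).

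Several inhibitors of the response were lower as well. Of 29 feedback inhibitors 8 were lower and none higher (0 by limma, 3 at an unadjusted p under 0.05, 1 with the clone as a block), and of 18 NF-κB subunits and inhibitors 5 were lower and 1 higher. The lower members made 27.6% and 27.8% of these lists, beside 2.14% of all genes. The higher NF-κB member made 5.56%, beside 2.16%. Zc3h12a, the ribonuclease regnase-1 that degrades cytokine mRNAs, had 8.67 and 8.29 in clones #1 and #2 and 12.29 in WT, at least 7.45-fold lower (adjusted p = 0.00196). The phosphatase gene Dusp5 had 10.22 and 10.68 in the clones and 13.20 in WT (difference -2.75, adjusted p = 0.00556). Nfkbid, a nuclear member of the IκB family, had 11.50 and 11.19 in the clones and 14.03 in WT (difference -2.68, adjusted p = 0.00424). Thus genes that restrain signaling and genes that carry inflammation stood lower in the same cells. Nfkbia, the classical NF-κB inhibitor IκBα, had 13.35 and 13.67 in the clones and 14.72 in WT (difference -1.22, adjusted p = 0.0461). Tnip1, Bcl3 and Irak3 were also lower, with differences of -2.14, -1.59 and -2.52, and so was Dusp2, dim in both clones and at least 1.38-fold lower. Tnip3, another A20-binding inhibitor, was higher, with 15.92 and 15.93 in the clones and 14.87 in WT (difference 1.06, adjusted p = 0.0401). Bcl3, Irak3, Nfkbia and Tnip3 lost their calls without either clone (adjusted p from 0.0714 for Bcl3 to 0.155 for Nfkbia without clone #1, and from 0.0780 for Irak3 to 0.179 for Tnip3 without clone #2), and Dusp2 did without clone #2 (0.0567) and with robust moderation (0.0574).

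Some enzymes that make inflammatory mediators were lower and others higher. Ptgs2, the inducible cyclooxygenase COX-2, had 11.24 and 11.88 in clones #1 and #2 and 14.21 in WT, a difference of -2.64 (standard error 0.30, adjusted p = 0.0112). Ptges, the prostaglandin E synthase coupled to it, had 7.32 and 8.28 in the clones and 11.38 in WT, at least 3.96-fold lower (adjusted p = 0.0434). Acod1, which makes itaconate, had 8.92 and 8.88 in the clones and 11.97 in WT, at least 5.95-fold lower (adjusted p = 0.00196). All 3 were highest on the WT array, but they were named because they passed as lower. Odc1, the first enzyme of polyamine synthesis, had 12.82 and 12.66 in the clones and 14.76 in WT (difference -2.02, adjusted p = 0.0101). Higher instead were Hpgds and Alox5, given above, the leukotriene C4 synthase gene Ltc4s, dim in both genotypes (difference 1.61, adjusted p = 0.0486), the prostaglandin E2 receptor Ptger4 (10.32 and 10.07 in the clones and 8.43 in WT, at least 1.98-fold, adjusted p = 0.0119) and Cybb, the catalytic subunit of the phagocyte NADPH oxidase (17.14 and 16.85 in the clones and 14.87 in WT, difference 2.12, adjusted p = 0.00775). Without clone #1 and without clone #2 the adjusted p was 0.147 and 0.106 for Ptges, 0.0593 and 0.0704 for Odc1, and 0.0701 and 0.0534 for Ptger4. For Cybb it was 0.0512 without clone #1.

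**Figure D3:**
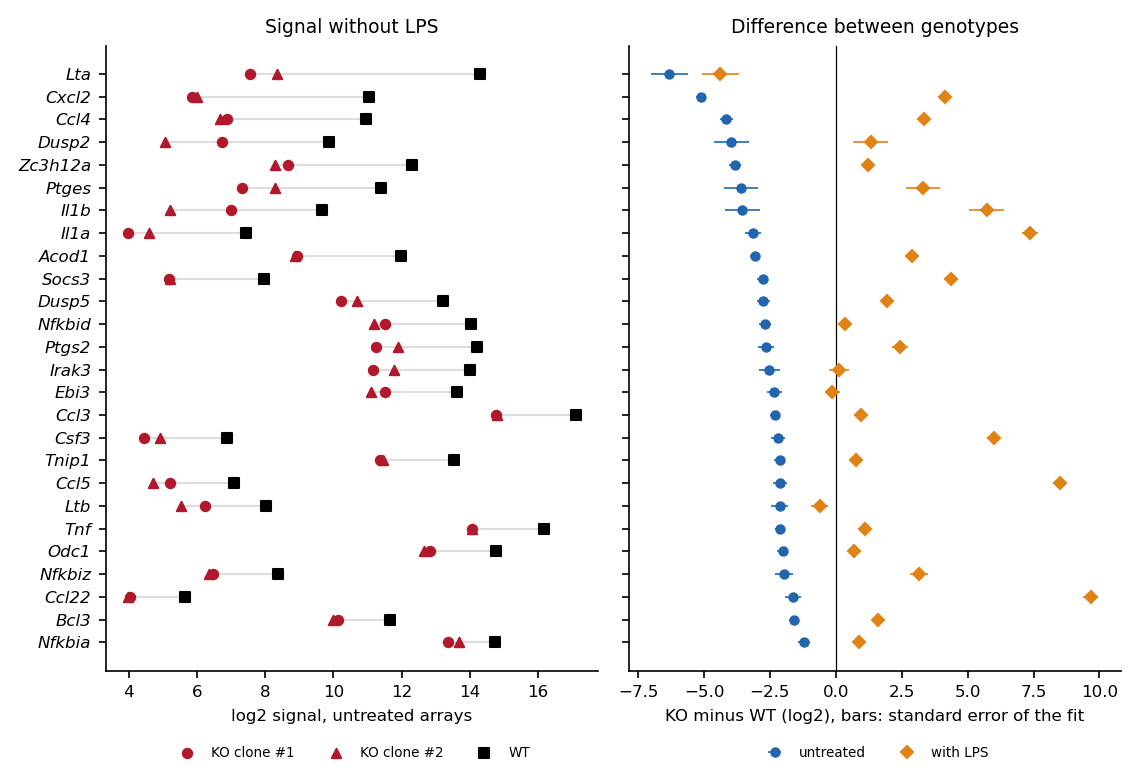
Left, log2 signals of the 26 inflammatory genes lower in KO on the untreated arrays, with clones in red and WT as black squares. Right, their KO minus WT differences without LPS (blue circles) and with LPS (orange diamonds), bars being the standard error of the fit; untreated differences all lie below 0 because the genes were chosen for it, and with LPS 23 of 26 lie above 0.

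NF-κB binds decameric κB sites, and RefSeq promoter windows (GRCm38.p6, 250 bases before to 50 after each start) were read for 22 of these 26 genes. The letters GGGA and TTCC with any 2 bases between them, or the reverse complement (GGAA and TCCC with 2 between), occurred on either strand in 3 of the 22, against 1.63% of all 27025 genes with a window (1.47% of 32851 windows), a motif chosen after the values were seen. The stretches below, cut before the start site, are shown because they hold those letters, in capitals, upstream of Cxcl2 (chr5:90903757-90903856, plus strand), Ltb (chr17:35194375-35194474, plus strand) and Nfkbia (chr12:55492648-55492721, minus strand). The match began 97, 87 and 29 bases before the start, and in Cxcl2 a match to the reverse complement overlaps it 1 base on. A match describes letters, not binding.
Cxcl2: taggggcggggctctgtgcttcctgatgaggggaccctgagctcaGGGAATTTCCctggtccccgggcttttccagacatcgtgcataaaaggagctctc
Ltb: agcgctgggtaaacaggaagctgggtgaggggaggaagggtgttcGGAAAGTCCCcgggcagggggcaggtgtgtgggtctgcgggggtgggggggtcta
Nfkbia: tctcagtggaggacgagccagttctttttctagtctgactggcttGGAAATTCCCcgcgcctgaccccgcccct

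Transcription factors of the AP-1 and immediate early group were mostly lower where they moved, 7 of 28 lower and 1 higher. That is 25% lower, beside 2.14% of all genes, and 3.57% higher, beside 2.16%. Myc, which drives growth, had 13.19 and 13.27 in clones #1 and #2 and 16.12 in WT, a difference of -2.89 (standard error 0.18, adjusted p = 0.00206). Fosl1 had 9.70 and 9.97 in the clones and 12.11 in WT (difference -2.27, adjusted p = 0.00566). Jdp2, a Jun dimerization partner from the osteoclast list, had 9.94 and 10.07 in the clones and 13.84 in WT (difference -3.83, standard error 0.19, adjusted p = 0.00125). Each of these stayed above the negative controls in KO cells. Batf, Jun and Egr3 were lower but dim in both genotypes. The gene that went up was Egr2, a zinc finger factor of myeloid cells, with 12.23 and 12.40 in the clones and 8.67 in WT, at least 8.61-fold (adjusted p = 0.0349, or 0.126 and 0.162 without clone #1 and clone #2).

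Several receptors that sense microbes were higher. Of 27 pattern recognition receptors 8 were higher (29.6%, beside 2.16% of all genes) and none lower (0 by limma, also at an unadjusted p under 0.05 and with the clone as a block), with a list median of 0.81. Without clone #1 there were 3 and without clone #2 there were 4. Tlr4, the LPS receptor, had 12.92 and 13.09 in clones #1 and #2 and 9.80 in WT, a difference of 3.20 (standard error 0.20, adjusted p = 0.00206). Tlr7, which senses single-stranded RNA in endosomes, had 15.93 and 15.63 in the clones and 12.36 in WT (difference 3.42, adjusted p = 0.00699, or 0.0512 without clone #1). Tlr13, a mouse sensor of bacterial ribosomal RNA, had 12.36 and 12.65 in the clones and 9.17 in WT, at least 9.85-fold (adjusted p = 0.0188, or 0.0801 and 0.105 without clone #1 and clone #2). The clones overlapped in none of these with WT, but the genes were named because they passed as higher. Tlr8 had 9.82 and 9.57 in the clones and 5.18 in WT, at least 1.4-fold (adjusted p = 0.00544). Tlr2, which senses lipoproteins, had 15.58 and 15.56 in the clones and 14.49 in WT (difference 1.08, adjusted p = 0.0399, or 0.15 and 0.176 without clone #1 and clone #2). Ly86, or MD-1, Clec4n and Clec4d completed the 8.

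Among 22 adaptors and kinases below these receptors, 1 was higher (4.55%, beside 2.16% of all genes), the TLR4 adaptor Ticam2, which was dim in both genotypes. The inhibitory kinase Irak3 was the 1 lower gene (4.55%, beside 2.14%). Myd88, the common adaptor, had 12.94 and 12.66 in clones #1 and #2 and 12.98 in WT (difference -0.18, standard error 0.22, adjusted p = 0.725). Map3k7, which encodes TAK1, had 11.54 in each clone and 11.61 in WT (difference -0.07, standard error 0.18, adjusted p = 0.884). Differences of that size are within the error of the fit.

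Some cytokine and chemoattractant receptors were higher as well, 29.0% and 15% of their lists beside 2.16% of all genes. Of 31 cytokine receptors 9 were higher (29.0%) and none lower (0 by limma, also at an unadjusted p under 0.05 and with the clone as a block), with a median of 0.86, and 2 passed without clone #1 and 2 without clone #2. Il13ra1, a chain of the IL-13 receptor, had 12.17 and 12.34 in clones #1 and #2 and 9.25 in WT (difference 3.01, standard error 0.27, adjusted p = 0.0055). Tnfrsf1b, the TNF receptor TNFR2, had 9.99 and 9.98 in the clones and 7.24 in WT, at least 1.71-fold (adjusted p = 0.00298). Both passed without either clone. Il6st, Tgfbr2, Tnfrsf1a and Csf1r were bright in both genotypes, with differences from 1.25 for Csf1r to 1.67 for Il6st. Il18rap, Tgfbr1 and Csf2rb were dim in WT and at least 1.68-fold, 2.07-fold and 1.09-fold higher. None of these 7 passed without either clone, with an adjusted p of 0.0980 and 0.0629 for Il18rap and 0.0806 and 0.141 for Tgfbr1 without clone #1 and clone #2. Of 20 chemoattractant receptors 3 were higher, with a list median of 0.18 and 14 positive differences, and all 3 also without either clone. They were Cx3cr1 and P2ry6, given above, and C5ar1, the receptor of complement C5a, with 11.67 and 11.62 in the clones and 8.25 in WT, at least 5.41-fold (adjusted p = 0.00176).

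Several genes that mark macrophages were higher too, 29.0% of the list beside 2.16% of all genes. Of 31 identity genes 9 were higher and none lower (0 by limma, also at an unadjusted p under 0.05 and with the clone as a block), with a median of 0.51, and 4 passed without clone #1 and 3 without clone #2. Adgre1, which encodes F4/80, had 12.63 and 12.79 in clones #1 and #2 and 10.19 in WT (difference 2.52, standard error 0.19, adjusted p = 0.00351). Trem2, a lipid-sensing receptor, had 14.66 and 14.81 in the clones and 12.10 in WT (difference 2.64, standard error 0.22, adjusted p = 0.00479). Lyz1, a lysozyme, had 15.14 and 15.86 in the clones and 11.97 in WT (difference 3.53, adjusted p = 0.0144). Both clones were above WT in each, but these genes were named because they passed as higher. Cebpa, a myeloid transcription factor, had 10.80 and 10.72 in the clones and 6.87 in WT, at least 2.94-fold (adjusted p = 0.00861, or 0.0610 and 0.0599 without clone #1 and clone #2). Lyz1 lost its call without clone #2 (0.0648). Lyz1 has a near-identical neighbor, Lyz2, and how the probes divide them is unsure. In cultures of 1 line, more RNA per cell and more cells in a state that expresses a gene cannot be told apart.

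Genes of uptake and adhesion were mostly higher where they passed. Of 26 Fc receptor and phagocytosis genes 8 were higher and none lower (0 by limma, 3 at an unadjusted p under 0.05, 1 with the clone as a block). The higher members made 30.8% of the list, beside 2.16% of all genes. Fcgr3, an activating IgG receptor, had 13.46 and 13.20 in clones #1 and #2 and 10.86 in WT (difference 2.46, adjusted p = 0.00478). Of 24 C-type lectins and scavenger receptors 5 were higher (20.8%, or 10 genes with the clone as a block) and none lower, also at an unadjusted p under 0.05. Colec12, a scavenger receptor, had 16.26 and 16.31 in the clones and 14.22 in WT (difference 2.07, adjusted p = 0.00952). Integrins split. Of 28 adhesion genes 6 were higher (21.4%, beside 2.16% of all genes) and 1 lower (3.57%, beside 2.14%). Itgb5 had 11.08 and 11.46 in the clones and 7.61 in WT, at least 4.16-fold (adjusted p = 0.00374), whereas Itga5, of the fibronectin receptor, had 11.36 and 11.60 in the clones and 13.28 in WT (difference -1.80, adjusted p = 0.0111). Colec12 and Itga5 lost their calls without either clone (adjusted p = 0.0626 and 0.0674 without clone #1, and 0.0683 and 0.0515 without clone #2).

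Osteoclast genes moved both ways, 4 of 35 higher and 4 lower (11.4% each, beside 2.16% and 2.14% of all genes), with a median of -0.12. Mitf, a factor that switches on osteoclast enzymes, had 13.66 and 14.03 in clones #1 and #2 and 12.003 in WT (difference 1.84, adjusted p = 0.0158). Itgav, of the vitronectin receptor, had 11.61 and 11.96 in the clones and 10.44 in WT (difference 1.35, adjusted p = 0.0476). With Trem2 and Tyrobp, its adaptor, these were the higher ones. Itgav and Tyrobp lost their calls without either clone (adjusted p = 0.108 and 0.15 without clone #1, and 0.194 and 0.116 without clone #2), and Mitf without clone #2 (0.0746). Lower were Jdp2, given above, and Prdm1, Mmp9 and Src, which were dim in both genotypes. Nfatc1, the master factor of osteoclasts, had 14.40 and 14.79 in the clones and 15.20 in WT (difference -0.60, standard error 0.34, adjusted p = 0.413). Acp5, which encodes TRAP, had 12.26 and 12.78 in the clones and 14.35 in WT (difference -1.83, adjusted p = 0.0911, or 0.00751 with the clone as a block and 0.0193 in a fit of the 3 untreated arrays alone). Ctsk, cathepsin K, had 12.03 in clone #1, 10.15 in clone #2 and 11.82 in WT, so WT lay between the clones (adjusted p = 0.726).

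Lysosomal hydrolases were higher where they passed, 5 of 36 (11 with the clone as a block, 1 without clone #1, 2 without clone #2), and none lower by limma (2 at an unadjusted p under 0.05, 1 with the block). The higher members made 13.9% of the list, beside 2.16% of all genes. The list median was 0.58 and 28 of 36 differences were positive. Man2b1, the lysosomal α-mannosidase, had 12.20 and 11.76 in clones #1 and #2 and 9.54 in WT (difference 2.44, standard error 0.27, adjusted p = 0.0111). Hexa, a β-hexosaminidase subunit, had 14.48 and 14.43 in the clones and 12.98 in WT (difference 1.48, adjusted p = 0.0164). Naglu, which degrades heparan sulfate, had 10.61 and 10.54 in the clones and 8.18 in WT, at least 2.58-fold (adjusted p = 0.00366). Its pathway neighbor Sgsh had 9.21 and 9.86 in the clones and 7.27 in WT, at least 1.25-fold (adjusted p = 0.0473). Clone #1 was itself dim for Sgsh, so that bound holds only for the mean of the clones. The clones were above WT in all 4, but these were named because they passed as higher. Psap, the precursor of the saposins, was the fifth. Hexa and Psap lost their calls without either clone (adjusted p = 0.0886 and 0.140 without clone #1, and 0.0934 and 0.123 without clone #2), and Man2b1 without clone #1 (0.0588).

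TFEB, a regulator of lysosomal genes, binds an E-box sequence. The letters TCACGTG or their reverse complement CACGTGA were in the windows of 2 of these 5 genes, against 4.29% of all genes with a window (3.77% of windows), a motif likewise chosen after the values were seen. They are shown with the match in capitals, for Naglu (chr11:101069975-101070071, plus strand, 74 bases before the start) and Sgsh (chr11:119355511-119355584, minus strand, 29 bases before the start).
Naglu: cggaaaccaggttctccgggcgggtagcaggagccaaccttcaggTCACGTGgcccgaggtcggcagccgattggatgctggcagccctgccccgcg
Sgsh: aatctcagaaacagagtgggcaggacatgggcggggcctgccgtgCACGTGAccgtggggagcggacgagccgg

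The 2 lists drawn up around the lipin pathway gave 1 call each. Among 21 genes listed as lipins and phosphatidate enzymes, 13 of them dim in both genotypes, 1 was higher (4.76%, beside 2.16% of all genes). It was Pld3, with 12.12 and 12.05 in clones #1 and #2 and 10.76 in WT (difference 1.32, adjusted p = 0.0264). Whether Pld3 acts on phosphatidate was not tested, so its call does not by itself speak for the pathway. The block fit gave 5 higher members. Lpin1 had 7.17 and 7.29 in the clones and 6.51 in WT, and Lpin3 had 5.63 and 5.79 in the clones and 5.85 in WT, all dim. Of 31 genes of triglyceride and phospholipid synthesis 1 was higher (3.23%), Agpat2, which makes phosphatidate, with 11.31 and 11.21 in the clones and 10.22 in WT (difference 1.04, adjusted p = 0.0499). Neither Pld3 (adjusted p = 0.116 and 0.125) nor Agpat2 (0.176 and 0.189) passed without clone #1 or without clone #2. No cholesterol synthesis gene (0 of 20) and no fatty acid synthesis gene (0 of 19) passed by limma, with 3 and 4 at an unadjusted p under 0.05 and 0 and 1 with the block.

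A few genes that store, release or export lipid were higher. Plin2, which coats lipid droplets, had 11.21 and 11.52 in clones #1 and #2 and 9.58 in WT (difference 1.78, standard error 0.29, adjusted p = 0.0347). Pnpla2, the triglyceride lipase ATGL, had 13.27 and 13.12 in the clones and 11.88 in WT (difference 1.32, adjusted p = 0.0248). Together with Bscl2 (seipin) they made 3 of 19 lipid droplet genes (15.8%, beside 2.16% of all genes), with none lower at an unadjusted p under 0.05 either. Abcg1, which exports cholesterol, had 11.64 and 11.06 in the clones and 8.83 in WT, at least 4.41-fold (adjusted p = 0.0496). Abca3 and Npc1 were the other 2 of 15 efflux genes that passed (20% with Abcg1), with differences of 1.90 and 1.54. None of these 6 genes passed without clone #1 (adjusted p from 0.0626 for Abca3 to 0.166 for Abcg1) or without clone #2 (from 0.0662 for Abca3 to 0.162 for Plin2).

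**Figure D4:**
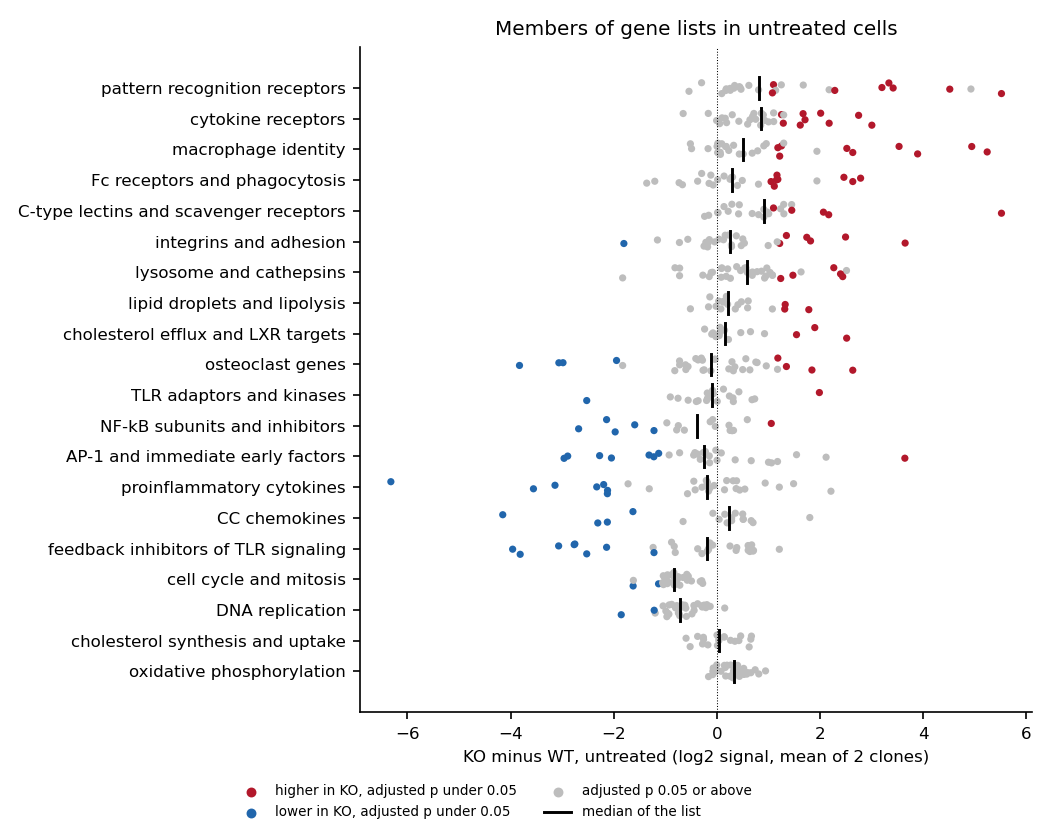
Each point is 1 measured gene of a list (rows), placed by its KO minus WT log2 difference in untreated cells (x axis, mean of the 2 clones), red where higher and blue where lower at an adjusted p under 0.05; black ticks are list medians. Receptor, identity and lysosome lists hold red points and none in blue, cytokine, CC chemokine and feedback inhibitor lists hold blue and none in red, and the cell cycle list lies wholly below 0 with a median of -0.82.

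Cell cycle genes had small negative differences, few of which passed the test. All 30 measured cell cycle genes had negative differences, with a median of -0.82 (-0.65 for clone #1 and -1.03 for clone #2), yet only Cdc20 and Bub1 passed (5 with the clone as a block, 1 without clone #1, 0 without clone #2, and 23 at an unadjusted p under 0.05). Cdc20, an activator of the anaphase-promoting complex, had 11.54 and 11.20 in clones #1 and #2 and 12.996 in WT (difference -1.62, adjusted p = 0.0447). Bub1, a kinase of the spindle checkpoint, had 12.49 and 12.45 in the clones and 13.60 in WT (difference -1.13, adjusted p = 0.0364). Mki67 had 15.43 and 15.23 in the clones and 15.65 in WT (difference -0.32, adjusted p = 0.559). Of 31 DNA replication genes 30 were negative, with a median of -0.72, and Orc1 and Orc6 of the origin recognition complex passed (3 with the block). Without clone #1 the adjusted p of Bub1, Cdc20, Orc1 and Orc6 ran from 0.0759 to 0.135, and without clone #2 from 0.0966 to 0.193. The lower genes made 6.67% of the cell cycle list and 6.45% of the replication list, beside 2.14% of all genes. None of the 27 replication-dependent histones passed (0 also at an unadjusted p under 0.05 and with the block).

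Metabolic genes gave a mixed picture. Of 27 genes of amino acid transport and ATF4 targets 2 were higher (7.41%) and 3 lower (11.1%, or 5 with the block), with a median of -0.40. Over all genes 2.16% were higher and 2.14% lower. Against the higher Slc7a8 stood the lower Slc7a5, another large neutral amino acid transporter, with 13.61 and 13.32 in clones #1 and #2 and 15.02 in WT (difference -1.55, adjusted p = 0.0208). Mthfd2, of mitochondrial folate metabolism, had 11.62 and 11.14 in the clones and 12.88 in WT (difference -1.50, adjusted p = 0.0433). In glycolysis 4 of 28 were higher (14.3%), Slc2a6, Aldoc, Hk3 and Hk1, and 4 lower (14.3%). Among the lower was the lactate transporter Slc16a3 with 13.03 and 12.73 in the clones and 14.91 in WT (difference -2.04, adjusted p = 0.0296). Without clone #1 and without clone #2 the adjusted p was 0.0678 and 0.105 for Slc7a5, 0.0781 and 0.162 for Mthfd2, and 0.0979 and 0.147 for Slc16a3. Gapdh had 17.43 and 17.42 in the clones and 17.54 in WT (difference -0.11, adjusted p = 0.792). No gene of oxidative phosphorylation (0 of 33) or of the unfolded protein response (0 of 24) passed by limma, with 9 and 9 at an unadjusted p under 0.05 and 1 and 0 with the block.

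Interferon-stimulated genes set the clones apart. Clone #1 exceeded clone #2 in 48 of 50 measured genes, by over 2-fold in 35, and the median difference from WT was 1.56 in clone #1 and 0.16 in clone #2. Over 2-fold above WT were 37 genes in clone #1 and 5 in clone #2, while 27 were above the negative controls in clone #1, 9 in clone #2 and 9 in WT. None passed the test of KO against WT (0 of 50 by limma, 7 at an unadjusted p under 0.05, and 14 with the clone as a block, which does not count the spread between the clones). Without clone #1 a single one was called, Oasl1, an antiviral OAS-like protein that was dim in both genotypes and lower in clone #2 (difference -2.53). Irf7, a factor that amplifies interferon production, had 12.65 in clone #1, 7.51 in clone #2 and 9.44 in WT. Usp18, which restrains interferon signaling, had 11.48 in clone #1, 6.73 in clone #2 and 7.32 in WT. Ifi44l had 10.08 in clone #1, 4.75 in clone #2 and 4.53 in WT. Clone #1 alone was bright for Usp18 and Ifi44l. Trim30a differed in both clones, with 10.93 in clone #1, 7.59 in clone #2 and 3.31 in WT (difference 5.95, standard error 1.49, adjusted p = 0.0970). The order of the clones was seen again on their LPS arrays, where clone #1 exceeded clone #2 in all 50 genes, by over 2-fold in 36, with a median gap of 1.28 (1.42 untreated). There Irf7 had 16.40 in clone #1 and 14.998 in clone #2. The difference between the clones was not tested.

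**Figure D5:**
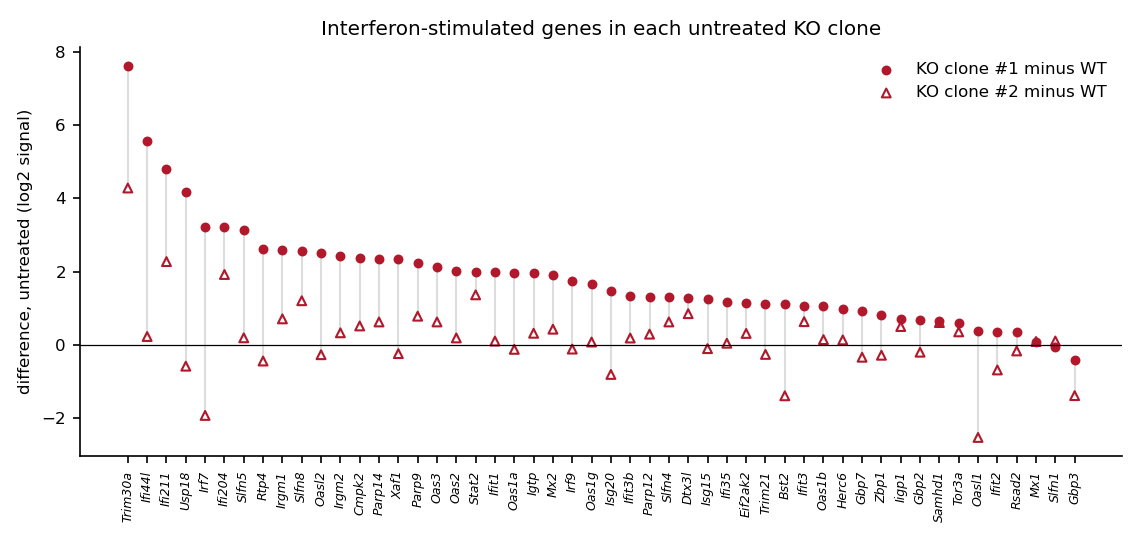
Log2 difference from the untreated WT array (y axis) for each of the 50 measured interferon-stimulated genes (x axis), as filled circles for KO clone #1 and open triangles for KO clone #2. Clone #1 lies above clone #2 in 48 genes. For Irf7 and Bst2 the clones lie over 2-fold on opposite sides of WT, with clone #2 dim in both.

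Of the 232 genes that differed over 2-fold between the untreated clones, 35 were interferon-stimulated genes and 197 were among the 19455 others, and 83 of the 232 were above the negative controls in at least 1 genotype. Opposite differences from WT of over 2-fold were seen in 4 genes, 3 of them above the controls on at least 1 array. These were Irf7, Bst2 (tetherin, an interferon-induced antiviral protein) with 10.69 in clone #1, 8.18 in clone #2 and 9.58 in WT, and Prkar2b (a regulatory subunit of protein kinase A) with 6.71 in clone #1, 9.76 in clone #2 and 7.84 in WT. In all 3 the lower clone was dim, and for Prkar2b WT was dim too. The size of the difference on that side therefore rests on background signals and is not a measured fold.

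Whether the baseline difference persisted with LPS depended on the gene group. Of the 422 genes higher without LPS, 175 were also higher with LPS (4.62% of all genes were) and 16 lower. Of the 418 lower without LPS, 197 were also lower with LPS (6.66% of all genes were) and 43 higher. Both calls come from the same fit with the same error per gene, so a gene with a small error passes more readily in both. The percentages over all genes do not allow for that. The difference between the untreated and the LPS comparison was tested itself and passed in 641 genes (3.29%; 1078 with the clone as a block, 162 without clone #1 and 185 without clone #2), among them 95 of the 422 and 86 of the 418. The 422 and 418 genes were called on the untreated difference, which is subtracted in this test. Slc7a8 stayed higher, with 15.11 and 14.73 in LPS-treated clones #1 and #2 and 6.95 in LPS-treated WT. C5ar1 also did, with 13.13 and 13.30 in LPS-treated clones and 9.52 in LPS-treated WT. Klk8 stayed lower, with 4.47 and 4.37 in LPS-treated clones and 10.94 in LPS-treated WT, so that the clones were dim with and without LPS.

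The 26 inflammatory genes behaved otherwise. With LPS 17 of them were higher in KO cells, 1 was lower (Lta), and the difference between the comparisons passed in 22. The 26 were chosen as lower without LPS, a value that is subtracted in that difference, so its direction is in part set by the choice. On the WT arrays 17 of the 26 lay within 2-fold of each other with and without LPS, and the rest differed by more. Over all 19505 genes only 144 differed over 2-fold between the WT arrays, so such changes were more frequent among the 26. Cxcl2 had 11.05 on the untreated and 13.53 on the LPS-treated WT array. Acod1 had 11.97 and 14.9, Il1b 9.66 and 11.02, and Ccl4 10.94 and 12.11. Among the 17, Tnf had 16.18 on the untreated and 16.41 on the LPS-treated WT array, and Ccl3 had 17.10 and 17.60. For Tnf and Ccl3 the untreated WT array was near the treated one while the untreated clones lay lower. What part the state of the WT culture plays was not tested. Tlr4 went the opposite way, with a difference of 3.20 untreated and 0.58 with LPS. P2rx7, the ATP receptor upstream of the inflammasome, had 10.93 and 10.63 in untreated clones #1 and #2 and 9.63 in untreated WT (difference 1.15, adjusted p = 0.203, or 0.0434 in a fit of the 3 untreated arrays alone), and Nlrp3, an inflammasome sensor, had 10.37 and 10.31 in the clones and 10.28 in WT (difference 0.07, adjusted p = 0.941). Casp1, the protease that cuts IL-1β, was higher without LPS, with 14.32 and 14.34 in the clones and 12.68 in WT (difference 1.65, adjusted p = 0.0325, or 0.128 and 0.155 without clone #1 and clone #2).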

How the data were processed

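Total RNA was measured on 6 mouse Clariom S arrays, 1 per culture, of which the 3 untreated ones are compared here. The authors deposited log2 values made with RMA in Expression Console (background correction, quantile normalization and probe summary), for which the sources used here give no version. Of 28846 probe sets, 22206 are for genes and 19572 carry a symbol; for 55 genes with several, the brightest on average was taken, which left 19505 genes. Irak1 and Nfkb1 had no probe set with a symbol.

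All 6 arrays entered a limma 3.58.1 fit (R 4.3.3) with 1 mean per genotype and treatment, eBayes moderation (residual degrees of freedom 2, prior 3.83) and Benjamini-Hochberg adjustment. Replicates are 2 clones with 1 array each, so p-values measure the spread between these arrays only. Clone deviations from the group mean correlated between treatments (r = 0.222 over genes), and a number is the same clone in both, so the numbers pair the samples. The clone entered as a block in an alternative. Members and the 46 lists were chosen with earlier results of these data known. Genes named are those the study names, the 15 largest differences each way among bright genes over 2-fold in both clones, up to 4 per list and direction, and up to 6 that oppose between clones; dim and further list members were named after their values were seen. Steps were tested on simulated data. The alternatives are in the closing section. Motifs were searched on both strands of RefSeq promoter windows.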

Additional observations from a re-analysis of the deposited data

Results flagged for a closer look

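The KO minus WT difference with LPS was set against that without LPS for each named gene, and 41 differed in this between the treatments, with an adjusted p under 0.05 for the interaction in limma. The value in parentheses is the difference with LPS minus the difference untreated, on the log2 scale, and the adjusted p ran from 0.00109 to 0.0495. Many of these genes were named for a large untreated difference, which is subtracted here, so the sign of the value is in part set by that choice. For genes lower in untreated KO cells the difference was more positive with LPS. This held for the cytokines and chemokines Il1b (9.29), Tnf (3.21), Ccl4 (7.48), Ccl3 (3.25) and Cxcl2 (9.27), the inhibitors Nfkbid (3.01), Tnip1 (2.92), Bcl3 (3.19), Nfkbia (2.09), Zc3h12a (5.05), Dusp2 (5.28) and Dusp5 (4.70), and the enzymes Acod1 (5.96), Ptges (6.89), Ptgs2 (5.08) and Odc1 (2.72). It also held for the transcription factors and early genes Myc (2.73), Fosl1 (3.28), Ier3 (3.76) and Jdp2 (5.14), and for Cd80 (5.95), Scin (3.05), Itga5 (3.04), Plaur (2.99) and Mt2 (2.21). For genes higher in untreated KO cells it was more negative with LPS, as in Tlr4 (-2.62), Cldn11 (-3.15), Hpgds (-4.88), Alox5 (-3.65), Frmd4b (-4.61), Cd276 (-2.28), Slc40a1 (-3.94), Tgfbr1 (-2.39), Itgb5 (-3.93), Hk1 (-2.31), Rb1 (-1.95) and Sesn1 (-4.24). Tnfrsf1b (4.17) was higher untreated and more so with LPS, and the cell cycle kinase Bub1 (-1.71) was lower untreated and more so with LPS. Myd88 (1.74) and Nlrp3 (2.56) did not pass untreated and were higher with LPS. Each of these rests on 1 WT array per treatment. In 19 of the 41 genes 1 genotype was dim without LPS, so the sizes given rest in part on background signals and are not measured folds. These were Il1b, Ccl4, Cxcl2, Cd80, Scin, Dusp2, Zc3h12a, Acod1 and Ptges (dim in KO) and Cldn11, Hpgds, Alox5, Frmd4b, Cd276, Slc40a1, Tnfrsf1b, Tgfbr1, Itgb5 and Sesn1 (dim in WT). Without untreated clone #1 the difference passed in 162 genes overall and without untreated clone #2 in 185, against 641 with both.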

How the results depend on the processing

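In place of the 840 genes past the threshold, there were 1339 with the clone as a replicate block (all 840 among them). A filter on low signals gave 1280 of the 6388 genes not dim on all arrays. An intensity trend gave 1270, and an adjusted p under 0.01 gave 211. Student's t test of the 2 clones against the 1 WT array gave 3 (1785 at an unadjusted p under 0.05). For the arrays the study names a fold change over 2 but no test. The cause of these changes was not tested, except that the filter tests fewer genes. Leaving out 1 clone gave 214 to 222, and 182 of the 840 passed both times. The 1140 genes over 2-fold in both clones were 2863 over 1.5-fold, 295 over 4-fold, 759 after the filter, and 1509 to 1721 with 1 clone. In place of 148 list members past the threshold, there were 225 with an intensity trend and 53 to 56 without 1 clone. Of 122 named genes past it, 54 passed without each clone, 48 without either, and all 122 kept their sign in every setting run. The 641 genes whose difference changed with LPS were 1078 with the block and 162 to 185 without 1 clone, settings chosen after seeing the data. Signs reversed without a clone for Ctsk (-1.66 without clone #1, 0.22 without clone #2), Irf7 (-1.93 and 3.21), Prkar2b (1.91 and -1.13) and Bst2 (-1.40 and 1.11). Calls of 7 named genes were lost in settings that kept all arrays, namely Il1b, Dusp2 and Ptges with robust moderation (adjusted p = 0.0727, 0.0574 and 0.0642), Agpat2, Itgam and Rb1 with median centring (0.0571, 0.0554 and 0.0503) and Nfkbia with renewed quantile normalization (0.0554). Calls were gained by Acp5 and P2rx7 in a fit of the 3 untreated arrays (0.0193 and 0.0434) and by Acp5 with an intensity trend (0.0453). The block changed no other call among the named genes than those of Lpin2 and Acp5, given in the report. Signals at or under the negative controls limit what can be said for 261 of the 840 genes, which were dim in both genotypes.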
